A study of Mus musculus with 10 samples.

Results

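The genes described here are the ribosomal protein genes that lie nearest to a binding peak of the transcription factor OTX2 in mouse epiblast stem cells (EpiSCs) or in definitive endoderm (DE) made from them. They were chosen by 2 properties: a ribosomal protein symbol, and being named by the authors as the nearest gene to at least 1 peak, so having a peak is how they were selected and is no finding. Of 90 genes whose symbol fits the naming rule, 63 were named, among 19974 genes of any kind named in either peak list. All 63 were in the DE list and 20 of them were also in the EpiSC list, so that 0 of 20 were named in EpiSCs alone, where 408 of all 5096 genes of the EpiSC list (8.01%) were. The 63 genes comprised 56 core ribosomal protein genes (22 of the small subunit and 34 of the large subunit) and 7 paralogs, which are gene copies related to a core gene. Ribosomal protein pseudogenes that carry ps in their name and the Rps6k kinases were left out. Gene names that differ between annotations can move a gene in or out of the named set, so counts by gene coordinates are given as well.

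OTX2 was mapped by CUT&RUN, in which an antibody tethers a nuclease to its target in permeabilised cells and the released DNA is sequenced. The anti-HA samples came from the line 7H OTX2-dTAG-EGFP, of BL6/129 hybrid background, in which OTX2 carries an HA epitope, and the labels name no degrader treatment. The EpiSC medium was N2B27 with Activin A (20 ng/ml), FGF2 (12.5 ng/ml) and NVP (175 nM). For DE, cells spent 16 h in CDM medium with CHIR (3 µM) and Activin A (40 ng/ml) and the next 24 h with LDN (100 nM) and Activin A (100 ng/ml), and live cells were sorted with DAPI. Each sample held 500000 cells. Of 10 samples, 2 HA samples per state entered the lists used here, and controls were 3 IgG samples of tagged EpiSCs, 1 IgG sample of tagged DE, and DE of the parental line 5.8, which lacks the tag, with 1 HA and 1 IgG sample. The authors pooled the 2 HA samples of a state into 1 list of positions, so no value below has a replicate spread, no test between states was possible, and read depth is unknown. Only 1 tagged line was used, and peak positions hold no expression, so the cell states could not be checked against marker levels.

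Ribosomal proteins fold and clothe the ribosomal RNA of the small and large subunits, and the genes for them are among the most highly transcribed in growing cells. The genes are short, their promoters are usually rich in G and C, and their messenger RNAs begin with a cytosine followed by pyrimidines, the terminal oligopyrimidine (TOP) motif through which growth signals set their translation. OTX2 is a homeodomain factor that is expressed in the epiblast and the anterior endoderm of the embryo. Homeodomains of its bicoid type prefer the letters TAATCC.

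The sequences below show what lay under the peaks just before the annotated transcript start. The 6 genes with the widest DE peaks there that overlapped an EpiSC peak come first, followed by the 2 genes with the widest DE peaks that did not. Each stretch is the part of the 250 bases before the start that the DE peak covered, read 5′ to 3′ on the gene's strand from RefSeq, build GRCm38.p6. Capitals mark matches, on either strand, to the ETS letters CCGGAA, the SP1 letters GGGCGG or the reversed bicoid letters CCTAAT, and TAATCC itself was in none of them.
Rps21 (chr2:180257129-180257363, + strand, shared): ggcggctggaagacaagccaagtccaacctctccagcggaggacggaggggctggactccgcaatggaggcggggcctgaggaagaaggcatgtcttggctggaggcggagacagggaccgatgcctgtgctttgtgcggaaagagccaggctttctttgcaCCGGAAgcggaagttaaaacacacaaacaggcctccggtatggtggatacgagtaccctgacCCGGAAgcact
Rpl13a (chr7:45128746-45128965, - strand, shared): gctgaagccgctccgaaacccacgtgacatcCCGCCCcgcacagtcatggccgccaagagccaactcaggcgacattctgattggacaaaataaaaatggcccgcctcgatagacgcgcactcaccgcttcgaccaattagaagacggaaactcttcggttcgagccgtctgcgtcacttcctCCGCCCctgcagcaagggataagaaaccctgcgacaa
Rpl10 (chrX:74270583-74270765, + strand, shared): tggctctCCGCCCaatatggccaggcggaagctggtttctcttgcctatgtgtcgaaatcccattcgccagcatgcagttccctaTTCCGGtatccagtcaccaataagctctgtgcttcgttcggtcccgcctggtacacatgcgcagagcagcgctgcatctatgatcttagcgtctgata
Rpl41 (chr10:128549169-128549312, - strand, shared): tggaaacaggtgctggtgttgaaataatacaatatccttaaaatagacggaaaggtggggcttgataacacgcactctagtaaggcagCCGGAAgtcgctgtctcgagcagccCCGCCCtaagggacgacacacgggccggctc
Rps19 (chr7:24884364-24884536, + strand, shared): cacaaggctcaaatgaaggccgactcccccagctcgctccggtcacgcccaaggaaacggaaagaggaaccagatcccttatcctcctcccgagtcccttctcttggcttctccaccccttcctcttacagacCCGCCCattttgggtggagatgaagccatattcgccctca
Rps27l (chr9:66945879-66946041, + strand, shared): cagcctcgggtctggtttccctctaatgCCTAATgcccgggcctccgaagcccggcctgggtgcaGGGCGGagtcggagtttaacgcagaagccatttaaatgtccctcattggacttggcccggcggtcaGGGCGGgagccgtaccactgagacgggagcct
Rpsa (chr9:120127516-120127765, + strand, DE-only): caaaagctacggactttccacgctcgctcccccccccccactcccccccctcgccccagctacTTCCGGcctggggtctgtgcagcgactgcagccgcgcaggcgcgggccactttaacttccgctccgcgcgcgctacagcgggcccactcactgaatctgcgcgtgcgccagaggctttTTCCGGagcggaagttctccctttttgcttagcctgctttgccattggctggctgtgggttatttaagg
Rpl37 (chr15:5116363-5116612, + strand, DE-only): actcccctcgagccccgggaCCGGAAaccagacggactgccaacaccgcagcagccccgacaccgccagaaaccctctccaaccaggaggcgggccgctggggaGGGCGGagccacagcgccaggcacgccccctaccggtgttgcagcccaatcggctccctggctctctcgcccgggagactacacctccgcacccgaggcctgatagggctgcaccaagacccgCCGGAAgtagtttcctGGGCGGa
ETS letters occurred in the stretches of Rps21, Rpl10, Rpl41, Rpsa and Rpl37, and SP1 letters in those of Rpl13a, Rpl10, Rpl41, Rps19, Rps27l and Rpl37. In Rps21 the ETS matches began 88 and 26 bases before the start, and in Rpl37 they began 230 and 23 bases before it. The Rps27l stretch held the reversed letters 179 bases before the start. A match of letters is a description of the sequence and does not show that a factor was bound.

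Across the promoter windows, the bicoid letters were found in few ribosomal protein genes and in few others. The window runs from 250 bases before to 50 after the start, and RefSeq promoter entries matched 65 of the 90 symbols, 44 of them among the 63 named genes. TAATCC, on either strand, was in 4 of 65 windows (6.15%, 95% Wilson interval 2.42 to 14.8%) and in 7.56% of those of 17426 other protein-coding genes. The 4 genes were Rpl9, Rps9, Rps28 and Rpl39l, and the last 2 were not named as nearest to any peak. The reversed letters CCTAAT, searched as a comparison of the same composition, were in 9.23% of the ribosomal protein windows and 7.70% of the others. In the 34 ribosomal protein windows that met a DE peak, TAATCC was in 2 and CCTAAT in 1, and in the 31 that did not, TAATCC was in 2 and CCTAAT in 5. In other genes TAATCC was in 9.22% of windows with a DE peak and 6.94% of those without, and CCTAAT in 7.52% and 7.77%. Counts this small in the ribosomal protein windows cannot show a difference of that size. All Wilson intervals here cover counting error only, and neighbouring genes and peaks are not independent.

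Of the motifs searched, the ETS letters differed most between ribosomal protein windows and others. CCGGAA was in 35 of 65 ribosomal protein windows (53.8%, 41.9 to 65.4%) and in 20.8% of the others. Among the ribosomal protein genes it was in 55.9% of the 34 windows that met a DE peak and in 51.6% of the 31 that did not, shares that differ by less than their counting intervals. Among the other genes it was in 33.4% of windows with a DE peak and 16.1% without. SP1 letters were in 73.5% of ribosomal protein windows with a DE peak and 48.4% of those without, and the same shares in other genes were 73.8% and 40.0%. The core letters of YY1, GATGGC, were in 24.6% of ribosomal protein windows and 15.3% of the others, and the TATA box letters TATAAA in 12.3% and 14.8%. A gene counted when any of its promoter entries held the letters, and the motifs can overlap each other.

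A cytosine at the annotated start, the first letter of the TOP motif, was more frequent than in other genes. Median G and C content of the 250 bases before the start was 57.2% in ribosomal protein genes and 55.2% in other genes. The base at the annotated start was a C in 22 of 65 ribosomal protein genes, each by its first promoter entry (33.8%, 23.5 to 46.0%), and in 13.7% of the others. The median share of pyrimidines in the first 10 bases from that start was 60% against 50%. Some annotated starts lay inside the gene. At Rpl18 the EpiSC peak was centred 91 bp from a gene end but 2695 bases before the nearest annotated start. The share therefore describes annotated starts and does not show how many of the messenger RNAs begin with a C. A C at the start was found in 32.4% of the genes with a DE peak in the window and in 35.5% of those without.

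A larger share of ribosomal protein genes than of other protein-coding genes had a peak in DE, while in EpiSCs the side on which other protein-coding genes fell of the counting interval depended on whether the 5 pseudogenes among the symbols were counted. In the DE list 63 of 90 symbols were named (70.0%, 59.9 to 78.5%), where 30.4% of all other genes, 50.3% of other protein-coding genes and 33.3% of other protein-coding genes no longer than the longest core gene were named. In the EpiSC list 20 of 90 were named (22.2%, 14.9 to 31.8%), against 8.39%, 15.3% and 10.6% of the same sets, of which only the 15.3% lies within the interval. Among the 85 protein-coding symbols the EpiSC share was 23.5% (15.8 to 33.6%) and among the 77 core genes 24.7% (16.4 to 35.4%), and both intervals lie above 15.3%. The limit on length was set because ribosomal protein genes were short, with a median of 2969 bp (941 to 11774 bp) among the 63 named, against 17258 bp for other protein-coding genes. By subunit, 22 of 31 small subunit genes and 34 of 46 large subunit genes were named in DE, and 8 and 11 in EpiSCs. The subunits therefore had similar shares, of 71.0% and 73.9% in DE and 25.8% and 23.9% in EpiSCs.

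Coordinates gave nearly the same shares as names. A peak centre lay inside or within 1 kb of 62 of 90 ribosomal protein genes in DE (68.9%, 58.7 to 77.5%), against 50.6% of other protein-coding genes and 28.9% of the short ones. In EpiSCs the count was 22 of 90 (24.4%, 16.7 to 34.2%), against 16.8%, within the interval, and 11.2%, below it. Among the 85 protein-coding symbols the EpiSC share was 25.9% (17.8 to 36.1%), an interval above 16.8%. Among the 77 core genes the count was 57 in DE (74.0%, 63.3 to 82.5%) and 20 in EpiSCs (26.0%, 17.5 to 36.7%). Such a DE share was not particular to them: other TOP and translation genes stood at 75% and replication-dependent histone genes at 71.9%. A peak reached the promoter window in 34 of 65 ribosomal protein genes in DE (52.3%, 40.4 to 64.0%) and in 27.2% of 17426 other genes. In EpiSCs the window was reached in 8 of 65 (12.3%, 6.37 to 22.5%) against 9.77%, a difference within the counting interval.

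The DE list held 42711 peaks against 6319 in EpiSCs, and the higher number of genes in DE was not seen among its widest peaks. When the DE list was limited to its 6319 widest peaks, all at least 259 bp wide, only 10 of 90 ribosomal protein genes were still named (11.1%, 6.15 to 19.3%), fewer than the 20 named in EpiSCs. By coordinates 7 of 90 genes (7.78%, 3.82 to 15.2%) then had a peak within 1 kb, where the share in other protein-coding genes was 13.0%. Of the 63 DE peaks within 1 kb of their ribosomal protein gene, 5 (7.94%, 3.44 to 17.3%) were among those widest peaks, as were 14.6% of the DE peaks within 1 kb of other genes. Of all 121 DE peaks of ribosomal protein genes 17 (14.0%, 8.96 to 21.4%) were among them, close to the 14.8% of peaks of other genes. Limiting the list in this way changed its length and its widths together, and their parts were not tested separately.

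**Figure D1:**
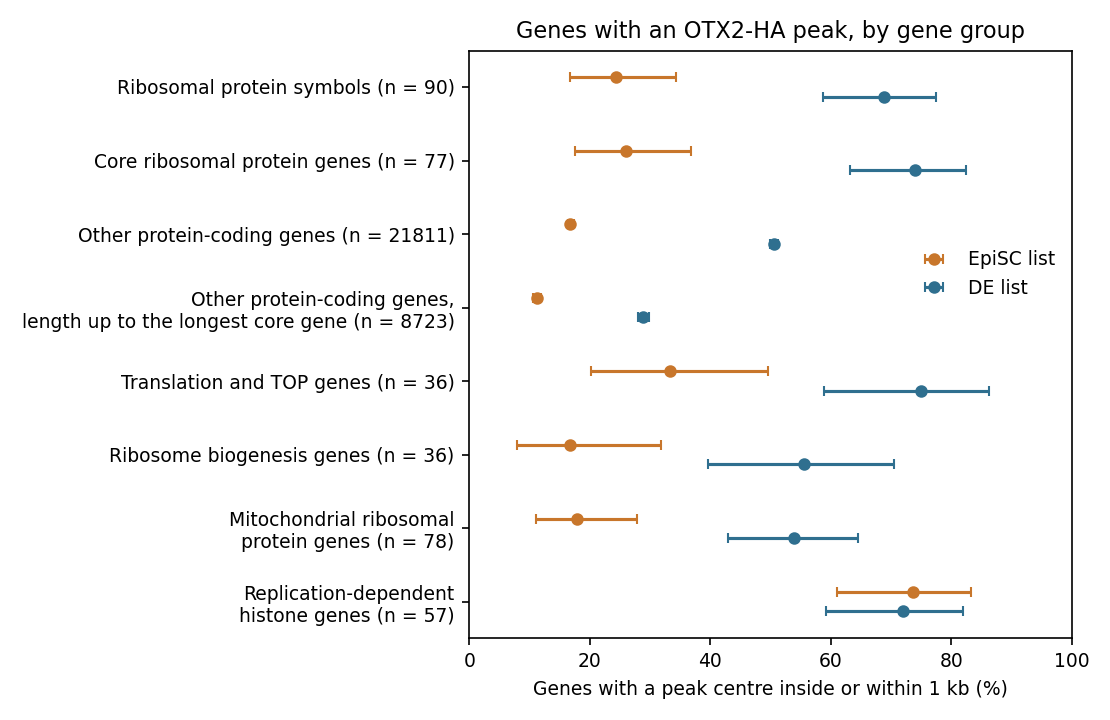
Share of genes with an OTX2-HA peak centre inside the gene or within 1 kb (x axis, percent) for ribosomal protein genes, other protein-coding genes and other gene lists (y axis), in the EpiSC list (orange) and the DE list (blue). Points are shares and bars are 95% Wilson intervals of counting error. The core ribosomal protein genes stand at 74.0% in DE and 26.0% in EpiSCs, and other protein-coding genes at 50.6% and 16.8%.

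The 63 genes held 121 DE peaks and 31 EpiSC peaks, in an uneven way. In DE 40 genes had 1 peak, 14 had 2 and 9 had 3 or more, and the 5 genes with the most held 39 of the 121. Rplp1, which encodes a protein of the acidic stalk that recruits translation factors, had 17 DE peaks, of which 16 lay farther than 1 kb away, out to 185660 bp. Rps15a and Rps24, both of the small subunit, had 6 each, and Rps14, of the small subunit, and Rpl7l1, a paralog of Rpl7, had 5 each. At these genes most or all peaks were far from the gene that gave them their name.

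The far peaks lay both in stretches without other protein-coding genes and across such genes. The 14 far DE peaks on the lower-coordinate side of Rplp1 fell in a stretch of chromosome 9 where the whole span of its far peaks, chr9:61727533-61916269, held 4 other RefSeq genes and no other protein-coding one. The 4 far peaks of Rps15a lay 49219 to 78004 bp away and included the widest DE peak of the set, 629 bp (chr7:118026056-118026684). The 5 peaks of Rps14 lay 7204 to 28356 bp away over a span that also overlaps the protein-coding gene Ndst1. The 4 peaks of Rps4l, a pseudogene by its annotation, lay 25710 to 40902 bp away over a span that overlaps the protein-coding gene Tmtc1, and the span of the 3 far peaks of Rps23 overlaps the protein-coding gene Atg10. In all, 58 DE peaks at 22 genes were farther than 1 kb, 17 of them at 5 genes farther than 50 kb, and 7 genes (Rps14, Rps27, Rpl28, Rpl37a, Rps4l, Rpl10l and Rpl6l) had no DE peak within 1 kb. For these the name is a label of the nearest gene, and a link to that gene was not tested.

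**Figure D2:**
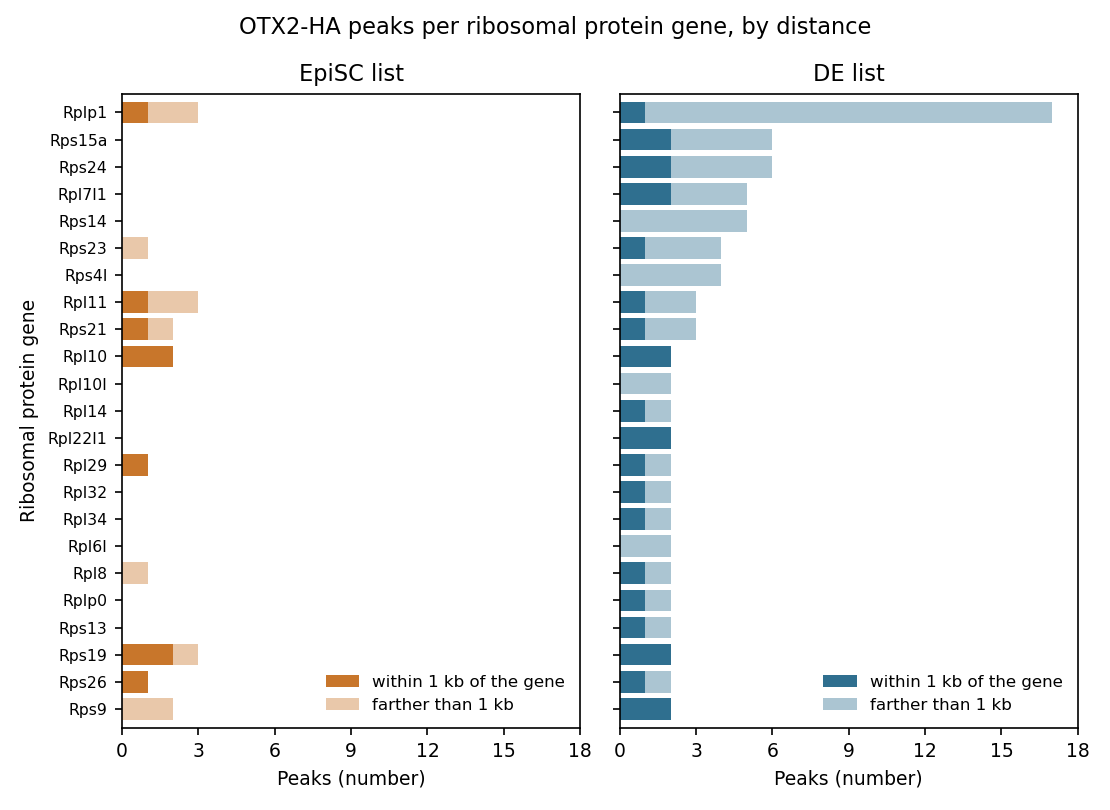
Number of OTX2-HA peaks (x axis) per ribosomal protein gene (y axis) in the EpiSC list (left) and the DE list (right), for the genes with at least 2 DE peaks. Dark bars count peaks inside or within 1 kb of the gene and pale bars those farther away. Rplp1 has 17 DE peaks, 16 of them farther than 1 kb, while most of the genes shown have 2.

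Peaks close to their gene sat at the gene's ends. Of the 121 DE peaks 47.1% (38.4 to 56.0%) were centred within 1 kb of either end of the named gene, against 20.5% of peaks named for other genes, and 15 (12.4%) were centred inside it, against 41.2%. Of the 31 EpiSC peaks 64.5% (46.9 to 78.9%) were near an end, against 39.9%, and 2 (6.45%) were inside, against 36.4%. Gene length differs between the sets, as given above, and its part in these shares was not tested. For other genes these shares cover the 86.1% of EpiSC peaks and 82.1% of DE peaks whose named gene had a position.

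The position within the promoter was close to that in other genes. In the 34 promoter windows that met a DE peak, the peak centre lay at a median of 83 bases before the start, written −83 (quartiles −128 and −44.8), and 29 of 34 centres (85.3%) were before the start. In other genes the median was −77 and 89.3% were before it. In the 8 windows with an EpiSC peak the median was −116.5 and all 8 centres were before the start, against −103 and 91.4% in other genes. The window reaches 250 bases before the start and 50 after, so its shape favours centres before the start in every set. These medians and shares, and their likeness between sets, are therefore partly fixed by the window. Of the 39 DE peaks centred within 1 kb on either side of the start, 33 were before it. Of these 34 ribosomal protein genes 31 were among the 63, and Rpl7a, Rps2 and Rps18 had a peak that the authors named for a neighbour.

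**Figure D3:**
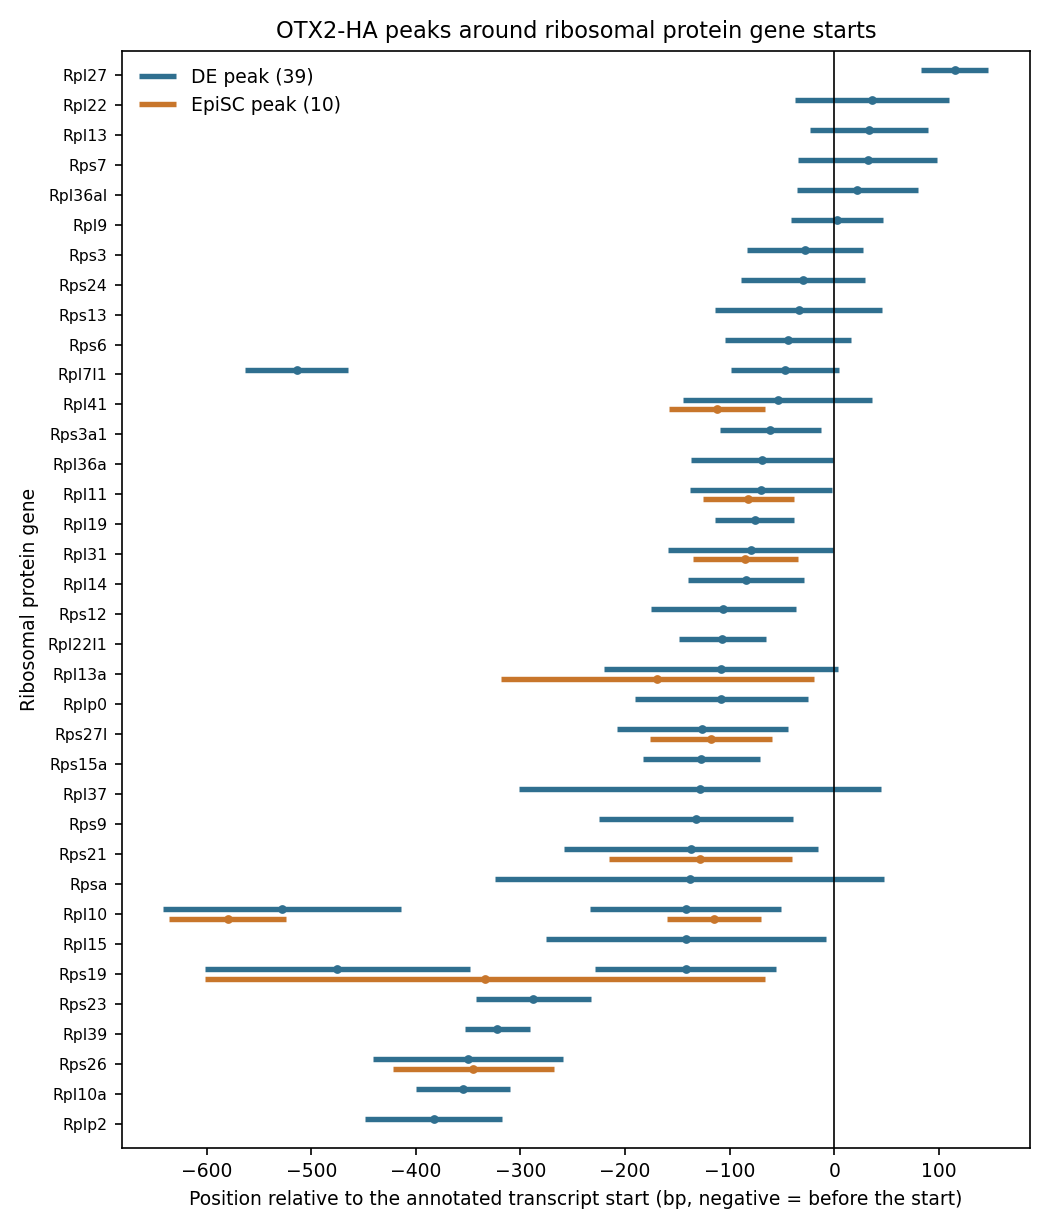
Each line is 1 OTX2-HA peak drawn to scale from its first to its last base, with a point at its centre, by position relative to the annotated transcript start (x axis, bp) for each ribosomal protein gene (y axis). DE peaks are blue and EpiSC peaks orange, and the 39 DE and 10 EpiSC peaks centred within 1 kb of the start are shown. Of the DE peaks 33 are centred before the start, as are all 10 EpiSC peaks.

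Single genes show the arrangement. At Rpsa, whose product was first described as a laminin receptor and is a small subunit protein, 1 DE peak of 372 bp was centred 138 bases before the start and overlapped no EpiSC peak. At Rpl37, of the large subunit, a DE-only peak of 346 bp was centred 128 bases before the start, and at Rpl15 one of 268 bp was centred 142 bases before it. The start of Rps6, the small subunit protein phosphorylated on growth signals, had a DE-only peak of 121 bp centred 44 bases before it. Peaks were centred just after the start at Rpl9 (88 bp, 3 bases after), Rps7 (133 bp, 32 bases after), Rpl13 (113 bp, 33 bases after) and Rpl22 (147 bp, 36 bases after). Rplp0, another stalk gene, had a DE peak of 165 bp centred 108 bases before its start, and Rplp2 one of 131 bp centred 383 bases before it. The peaks given here for Rpl37, Rpl15, Rpl9 and Rplp2 also lay within 1 kb of an end of another protein-coding gene.

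In EpiSCs the peaks belonged to 20 genes, and 18 of them had a peak with 1 bp or more in common with a DE peak, here called shared. At Rpl10, a late-joining protein of the large subunit, both EpiSC peaks (112 and 90 bp, centred 580 and 115 bases before the start) overlapped wider DE peaks of 227 and 183 bp. At Rps21, of the small subunit, the EpiSC peak of 175 bp centred 128 bases before the start lay within the DE peak of 243 bp. At Rpl41, which encodes the smallest of the proteins, the peak was 92 bp in EpiSCs and 181 bp in DE. These promoters therefore had a peak at the same place in both lists.

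Most other large subunit genes also had the wider peak in DE. Rpl31 had 101 bp in EpiSCs and 158 bp in DE, Rpl18 had 181 and 243 bp, and Rpl23a had 150 and 190 bp. At Rpl13a, the EpiSC peak of 300 bp was wider than the DE peak of 224 bp, and at Rpl29 the order was the same, with 168 and 151 bp. Rpl11, whose product binds MDM2 when ribosome assembly fails, had 3 shared peaks: 87 and 136 bp at the promoter, and a pair about 18 kb away of 155 and 361 bp in EpiSCs and 297 and 436 bp in DE. The shared peak of Rplp1 nearest its gene was 188 bp in EpiSCs and 307 bp in DE. Rpl8, a protein near the catalytic centre, had its shared peak (99 and 213 bp) about 1950 bp from the gene, while the DE-only peak of 104 bp lay 64 bp from it.

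Among small subunit genes Rps26 had 154 bp in EpiSCs and 182 bp in DE, and Rps27a, which encodes a fusion with ubiquitin, had 93 and 190 bp. Rps23, a protein of the decoding centre, had a shared peak of 106 and 431 bp, but 100307 bp from the gene, while its promoter peak of 110 bp was DE-only. The paralog Rps27l, known as a p53 target, was the only paralog in the EpiSC list, with 117 bp there and 163 bp in DE. The other 6 paralogs had DE-only peaks: Rpl22l1 had 83 and 119 bp and Rpl36al had 116 bp within 1 kb, Rpl7l1 had 103 and 98 bp within 1 kb and 3 farther, and Rpl10l, Rpl6l and Rps4l had none within 1 kb.

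Shared peaks were wider in DE than in EpiSCs at most loci. Of 24 shared EpiSC peaks the overlapping DE peak was wider at 21 (87.5%), with medians of 125.5 bp in EpiSCs and 218.5 bp in DE and a median ratio of 1.48 (0.472 to 4.07). In other genes the DE peak was wider at 78.7%, with a median ratio of 1.40. The ribosomal protein loci thus followed the lists as a whole, and width is the only measure of a peak that the lists hold.

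**Figure D4:**
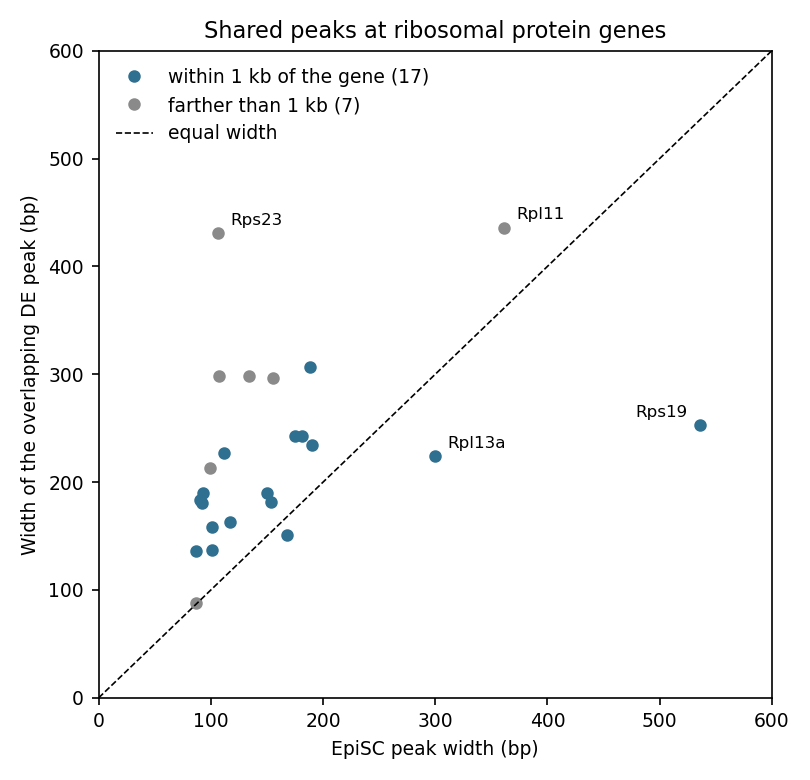
Width of each of the 24 shared EpiSC peaks at ribosomal protein genes (x axis, bp) against the width of the DE peak with which it has the most bases in common (y axis, bp). Blue points lie within 1 kb of the gene, grey points farther, and the dashed line marks equal width. All but 3 points, those of Rpl13a, Rpl29 and Rps19, lie above the line.

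The classes of peaks split as follows. Of the 121 DE peaks 25 (20.7%, 14.4 to 28.7%) were shared and 96 were DE-only, and of peaks named for other genes 11.7% were shared. Near gene ends the shares were closer: among peaks within 1 kb of either end of the gene 17 of 57 (29.8%, 19.5 to 42.7%) were shared, against 27.8% of such peaks at other genes, a difference within the counting interval. Among DE peaks inside or within 1 kb of the gene they stayed apart, at 28.6% (18.9 to 40.7%) against 16.0% at other genes. The part of gene length in this was not tested. Of the promoter windows that met a DE peak, the peak was shared in 8 of 34 ribosomal protein genes (23.5%, 12.4 to 40.0%) and in 34.4% of 4748 other genes. Of the 31 EpiSC peaks 24 were shared (77.4%, 60.2 to 88.6%), and of those of other genes 78.8%. Among EpiSC peaks within 1 kb of either end of the gene 16 of 20 were shared (80.0%, 58.4 to 91.9%), against 92.4% at other genes, just above the interval, and the 4 that were not are all on chromosome 7. Asking for an overlap of 50% of both peaks lowered the shares to 48.4% of EpiSC peaks and 12.4% of DE peaks.

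Over all peaks, median widths were close to those of other genes. DE peaks of ribosomal protein genes had a median of 139 bp (quartiles 98 and 196, range 62 to 629) and those of other genes 138 bp, and EpiSC peaks had 134 bp (84 to 804) against 141 bp. Shared DE peaks had a median of 213 bp and DE-only ones 119 bp, and in other genes 224 and 129 bp. In the promoter windows the medians were lower than in other genes, at 135.5 against 165 bp in DE (34 ribosomal protein genes) and 109 against 155 bp in EpiSCs (8 genes). The 10 genes with the widest DE peak were Rps15a (629 bp), Rplp1 (450 bp), Rpl11 (436 bp), Rps4l (432 bp), Rps23 (431 bp), Rpsa (372 bp), Rpl37 (346 bp), Rpl6l (289 bp), Rps14 (283 bp) and Rpl15 (268 bp). Of these only Rpsa, Rpl37 and Rpl15 had their widest peak at the promoter, and the other 7 had it farther than 1 kb from the gene. The peaks of Rpl37 and Rpl15 also lay within 1 kb of an end of another protein-coding gene, Card6 and Nkiras1 respectively.

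EpiSC-only peaks numbered 7, and all were on chromosome 7, among them those of the small subunit genes Rps9 and Rps19. Rps9 had a peak of 804 bp (chr7:3707608-3708411), wider than 99.8% of the EpiSC list, 1112 bp from the gene, and one of 93 bp. The nearest DE peak, of 68 bp, was 455 bases away. The widest EpiSC-only peak was therefore beside a gene that also had DE peaks, at other positions.

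Rps19, the small subunit gene most often mutated in Diamond-Blackfan anaemia, combined the classes. Its EpiSC peak of 536 bp before the start overlapped 2 DE peaks of 253 and 173 bp, and 2 EpiSC-only peaks of 218 and 84 bp lay 4783 and 726 bp from the gene. Among other genes 84 of 1332 EpiSC-only peaks (6.31%) were on chromosome 7, which holds 15 of the 90 ribosomal protein symbols (16.7%). Without chromosome 7 every EpiSC peak of a ribosomal protein gene was shared.

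Of the 90 symbols 27 were not named, 21 of them core genes. A DE peak lay within 1 kb of 6 of these by coordinates but was named for a neighbour: Rpl4 (named Snapc5), Rpl7a (Med22), Rpl38 (Ttyh2), Rps2 (Snhg9), Rps18 (B3galt4 and Vps52) and Rpl3l (Msrb1). Rpl4 had 3 DE peaks and 2 EpiSC peaks of this kind. Of the 21 unnamed core genes 16 had no peak of either list within 1 kb, among them Rpl5, Rps4x and Rps25. In the other direction, 7 of the 63 DE peaks within 1 kb of a named ribosomal protein gene also lay within 1 kb of an end of another protein-coding gene, such as Lonp1 beside Rpl36 and Lias beside Rpl9. For such peaks the gene they belong to cannot be told apart.

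Few HA peaks of any gene overlapped a control peak: 50 of 6288 EpiSC and 35 of 42590 DE peaks of other genes, and 0 of 31 and 0 of 121 of ribosomal protein genes, too few peaks to set them apart. The EpiSC IgG lists held 202, 149 and 200 peaks and the parental HA list 14, and none of these 565 entries lay within 1 kb of any of the 90 genes. The second IgG list is contained in the third, so these count as 1 control sample. The control lists are short, and an IgG list of DE cells was not analysed here, so signal below the calling threshold in controls could not be examined.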

How the data were processed

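Per the labels, CUT&RUN used anti-HA or IgG antibody. The deposited lists give peak positions (chromosome, start, end) as called by the authors, other measures being absent from the HA lists: no score, depth or replicate. The submitters' processing notes name Bowtie2 2.3.5.1, SAMtools 1.14, Picard 2.26.10, bedtools 2.30, MACS2 2.2.6 and mm10, with no role or order. The authors' lists were merged over 50 bp, per the file names. The label of EpiSC HA replicate 2 also names the DE list and the IgG sample of tagged DE cites the HA list of DE; each list was taken for the state in its name. How the nearest gene was measured is not given in the sources used here.

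Positions were read as mm10 and set beside RefSeq gene and promoter tables of GRCm38.p6, the same assembly. Distance was from peak centre to the named gene. Peaks sharing at least 1 bp were called shared. Shares carry 95% Wilson intervals. Overlap code was tested on simulated intervals. Python 3.11.15, NumPy 2.4.6, pandas 2.3.3, SciPy 1.17.1 and matplotlib 3.10.9 were used. No test was run. The members and gene lists were chosen with earlier results of these data known. Named genes were every member with an EpiSC peak, the 10 with the widest DE peak, the 5 with the most DE peaks, those with EpiSC-only peaks and the paralogs, some of which are not reported here; the genes described singly at the promoter and the unnamed examples were chosen after their values were seen.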

Additional observations from a re-analysis of the deposited data

How the results depend on the processing

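Of 80 values over 14 alternatives, 67 stayed within the counting interval of the value reported and 13 moved. Many of the 67 could not move, so their number is no measure of stability. No peak of a ribosomal protein gene overlapped a control peak, and the limit on gene length removed no ribosomal protein gene. Limiting the DE list, or setting the narrowest EpiSC peak as the least width, cannot change the EpiSC gene share, width or end share. Limiting DE to its widest peaks gave 11.1% of genes with a DE peak, 19.4% of EpiSC and 35.3% of DE peaks shared, a median DE width of 307 bp, by construction, and 29.4% of DE peaks near a gene end; apart from the width, the cause was not tested. A reciprocal overlap of 50% gave 48.4% of EpiSC and 12.4% of DE peaks shared. Assigning peaks within 1 kb by coordinates gave 29.8% of DE peaks shared. Keeping only peaks within 1 kb of these short genes put 95.2% of EpiSC and 90.5% of DE peaks near an end, largely by construction. When near meant 250 bp, which can only lower the shares, they were 41.9% and 35.5%. Leaving out chromosome 7, chosen after seeing the data, gave 100% of EpiSC peaks shared. No paired analysis was possible because each state has a single list made from both HA samples, and for the same reason no replicate could be left out. With depth unknown, a gene without a peak is not shown to lack binding.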

Other observations

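Other genes of translation were compared in the same way, by a peak centre inside or within 1 kb. Among 36 other TOP and translation genes, such as elongation and initiation factors, 27 had a DE peak (75%, 95% Wilson interval 58.9 to 86.2%) and 12 an EpiSC peak (33.3%, 20.2 to 49.7%). The core ribosomal protein genes stood at 74.0% and 26.0%. Among 36 ribosome biogenesis genes, 20 had a DE peak (55.6%, 39.6 to 70.5%) and 6 an EpiSC peak (16.7%, 7.87 to 31.9%). Among 78 mitochondrial ribosomal protein genes, whose products serve the separate ribosome of mitochondria, 42 had a DE peak (53.8%, 42.9 to 64.5%) and 14 an EpiSC peak (17.9%, 11.0 to 27.9%). Rack1, a ribosomal protein whose symbol falls outside the naming rule, was named in DE with 2 peaks, and Fau, another, in neither list.

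Replication-dependent histone genes, also short and highly transcribed, were high in both states: 42 of 57 (73.7%) had an EpiSC peak and 41 (71.9%) a DE peak within 1 kb. Their names in the lists did not match the gene table, so they were counted by coordinates. Of 152 snoRNA and snoRNA host genes, 14 (9.21%) had an EpiSC peak and 30 (19.7%) a DE peak.

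Ribosomal protein pseudogenes, the names with ps that were left out above, gave 168 DE peaks at 85 names and 19 EpiSC peaks at 16 names. Of the DE peaks 6 lay within 1 kb of the pseudogene and none inside it, and 14 (8.33%, 5.03 to 13.5%) were shared.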
